A study of Drosophila melanogaster with 18 samples.

Results

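To ask what recruitment of ACF1 does to transcription at many genomic positions, reporters bound by a GAL4-ACF1 fusion were compared with the same reporters bound by the GAL4 DNA-binding domain alone. All 749 barcoded reporters of the deposited table entered the comparison, which uses 8 of the 18 libraries of the series. These are the 2 cDNA and 2 gDNA libraries of GAL4-ACF1 and the corresponding 4 libraries of GAL4. Kc167 is a Drosophila cell line derived from embryos. Its cells carried a GFP gene behind 5 GAL4-binding sites (UAS) and the copper-inducible metallothionein promoter, inserted at many sites by the Sleeping Beauty transposase. Both groups received 0.5 mM copper sulfate and a transient plasmid with an actin promoter, a V5 tag, the GAL4 domain and mCherry, for which the cells were sorted at day 2. The groups therefore differ by the ACF1 moiety, which was made on top of the ACF1 that the cells express themselves. The pool had been expanded from a subset of transfected cells, and all libraries come from this pool. Both groups have replicates 1 and 2, which the series text calls technical and the study calls biological, so p-values measure only the spread between these samples.

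ACF1 is the signature subunit of the nucleosome remodelers ACF and CHRAC. It pairs with the ATPase ISWI, which slides nucleosomes along DNA and arranges them at even distances. In flies these complexes are known for regular nucleosome arrays and for the assembly of repressive chromatin in the embryo. In the assay, the barcode count in reporter mRNA (cDNA) measures transcript, and the count in genomic DNA (gDNA) measures how many sorted cells carry the insertion. The deposited expression value is cDNA over gDNA, times 1 factor per library that contains the spike-in scaling.

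A reporter is known only by its random barcode of 21 bases, which lies in the transcript and ties every count to an insertion site. The barcodes of the reporters on which the account turns most follow, 5′ to 3′ as deposited. They are given in lower case because no base within them has a role of its own. The first 3 were called lower, the next was the 1 called higher, and the last 2 are strongly expressed reporters that were not called. Positions refer to the dm3 assembly, and gene annotation at the sites was not used here.
3R:13718423 (+): agtactggatgtggggggttc
2L:14457104 (+): cagggctgaatacgtgcaggt
3L:2687539 (−): tagcaacctcacactgggcgt
X:3325631 (−): gggggggcacgtcaggaagtg
3R:4644683 (+): tgggtaagggcaactgaactt
4:547814 (+): ggtacttatgttcctcgatcg

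Depth was sufficient to see most reporters in GAL4 and fewer in GAL4-ACF1. The cDNA libraries held 2616438 and 3715878 counts with GAL4-ACF1 and 4181903 and 3941610 with GAL4. The gDNA libraries held 1689978 to 2845445 counts. Every reporter was present in gDNA, with at least 83 counts in each of the 4 libraries. A reporter with no cDNA count was seen 179 and 130 times in GAL4-ACF1, or 23.9% and 17.4%, and 18 and 30 times in GAL4, or 2.40% and 4.00%. Whether fewer templates entered the GAL4-ACF1 cDNA libraries was not tested. Among reporters with 100 to 1000 counts in 1 replicate, 3.72% and 9.16% were at 0 in the other GAL4-ACF1 replicate, against 1.57% and 0.958% in GAL4.

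The median reporter had lower expression with GAL4-ACF1, while the top of the distribution overlapped between the groups. Median expression was 7.53 and 7.74 in the GAL4-ACF1 libraries and 27.9 and 24.3 in the GAL4 libraries. The groups did not overlap, and with 2 libraries against 2 the exact permutation test (two-sided) can give no p below 0.33. The lower quartile was 0.0248 and 0.869 with GAL4-ACF1 against 9.08 and 6.93 with GAL4. The 90th percentile stood at 189 and 162 against 209 and 234. At the 99th percentile the groups overlapped, with 1564 and 1358 in GAL4-ACF1 and 1336 and 1508 in GAL4. The distribution thus differed most at its low end and least at its top. The low end is near the floor of the counts in GAL4-ACF1 replicate 1, where 23.9% of reporters were at 0. The lower quartiles of the 2 GAL4-ACF1 libraries also lay far apart. In sorted bulk cells, a lower level in every cell and silence in some cells cannot be told apart.

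**Figure D1:**
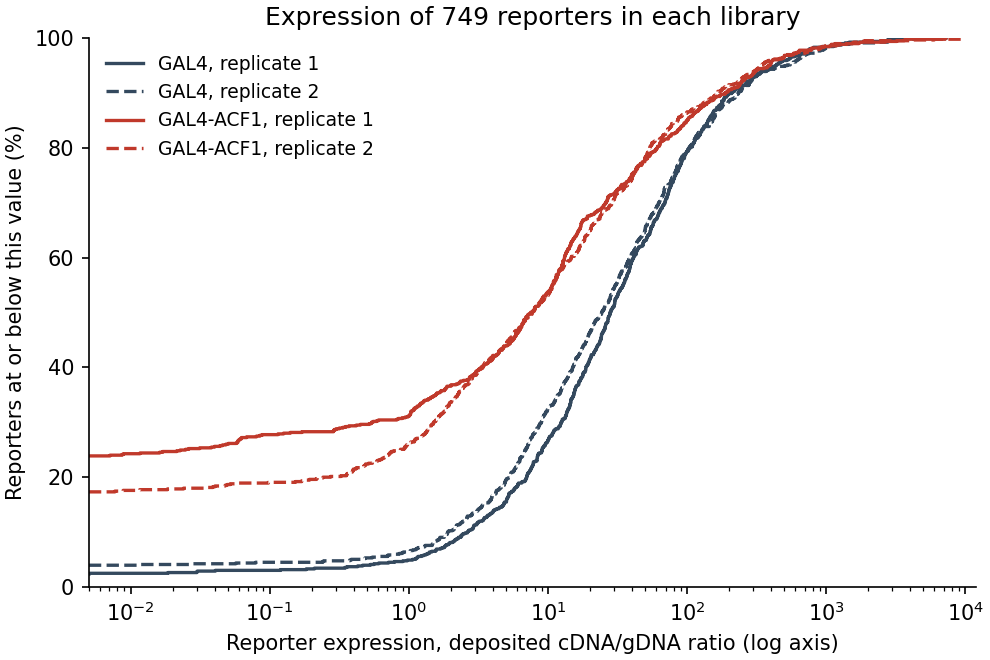
Cumulative distribution of deposited reporter expression (log axis) for 749 reporters, 1 line per library, starting at the percentage of reporters at 0. The GAL4-ACF1 lines start at 23.9% and 17.4%, lie left of the GAL4 lines through the middle of the range and meet them at the top.

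The sum over all reporters, of which a few strong ones made up a large share, was closer between the groups. Summed expression was 74335 and 77786 in GAL4-ACF1 and 82993 and 91262 in GAL4, which is 12.7% lower (means 76060.5 ± 2440 and 87128 ± 5847, SD, n = 2). The 10 strongest reporters made up 45.5% and 49.4% of the summed expression with GAL4-ACF1 and 30.9% and 34.2% with GAL4. The sum over reporters thus differed less between the groups than the median reporter did.

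Per reporter, the log2 fold-change was formed from the mean expression of both replicates for the 642 reporters with mean expression above 0 in all 4 conditions of the series. The remaining 107 were not tested. Of all 749 reporters, 84 were at 0 in both GAL4-ACF1 libraries and 8 in both GAL4 libraries. The filter leaves such reporters out, so those without any GAL4-ACF1 count are missing from the fold-changes of this paragraph. The median log2 fold-change was −1.44, between quartiles of −2.69 and −0.42. Replicate 1 alone gave −1.37 and replicate 2 alone −1.26 (mean −1.31 ± 0.075, SD, n = 2). These single-replicate medians cover 556 and 600 reporters. Each sets same-numbered libraries of the 2 groups against each other, a pairing that the labels do not give. Expression was lower in 545 reporters and higher in 97. A change of at least 2-fold downwards was found in 385 reporters and upwards in 27. At 4-fold these numbers were 239 and 7, and at 10-fold 104 and 1. In both replicates separately, 54 reporters were at least 10-fold lower and 0 were at least 10-fold higher.

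The direction was shared by the replicates more often than the size. In both replicates 436 reporters (67.9%) were lower, 41 were higher and 165 went different ways. Both GAL4-ACF1 libraries lay below both GAL4 libraries in 452 of all 749 reporters, which is 60.3%, and above both in 28, which is 3.74%. The size of the change at single sites was much less reproducible. Over 519 reporters measured in all 4 cDNA libraries, the log2 fold-changes of replicates 1 and 2 had a Pearson's r of 0.24 and a Spearman's rho of 0.28. These are descriptions across reporters that share the same libraries. In 254 reporters with a mean of at least 1000 cDNA counts r was 0.44, and in 208 reporters with 200 to 1000 counts it was 0.085. The SD of the difference between the replicates' log2 fold-changes was 1.46 in the deeper group and 2.64 in the other. The median log2 fold-change was −0.75 in the deeper group and −1.64 in the other. It rests on the mean of both replicates, so it is not on the scale of an SD of their difference.

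**Figure D2:**
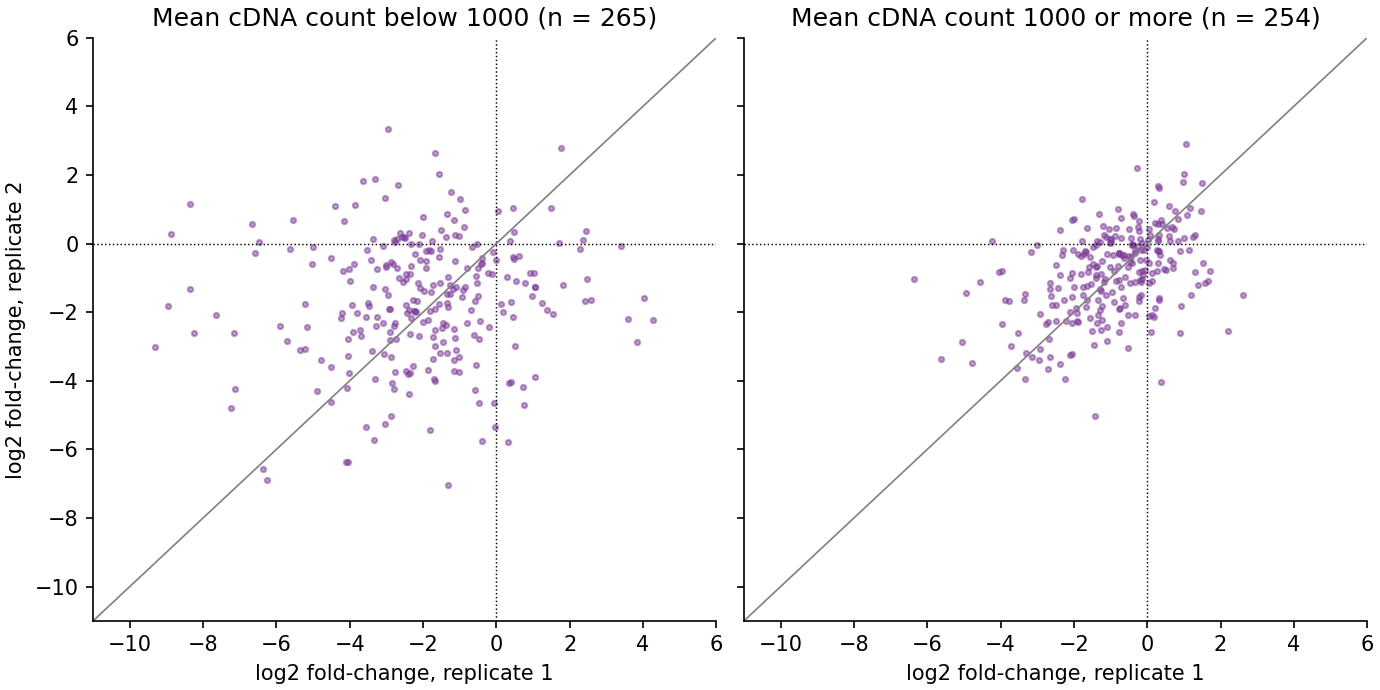
The log2 fold-change of each reporter (1 point) in replicate 1 and in replicate 2, for reporters with a mean cDNA count below 1000 (left) and of 1000 or more (right); the diagonal marks equal values. Points lie mostly in the lower left part of both panels and scatter less in the right panel, where Pearson's r was 0.44.

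The shift of the median reporter lay in the cDNA counts. The median log2 change of a reporter's share of the cDNA library was −1.13 in replicate 1 and −0.93 in replicate 2. The share of the gDNA library changed by a median of −0.027 and 0.017. In edgeR's quasi-likelihood test of gDNA alone, 0 of 642 reporters passed an adjusted p of 0.05, and 34 (5.30%) had an unadjusted p below 0.05. Of the 41 reporters called lower in expression, 7 were among these 34. The fitted gDNA changes of the 41 ran from −0.62 to 1.86 on the log2 scale, with a median of 0.14. The gDNA share of the median reporter was thus nearly the same in both groups, and no single reporter passed the adjusted gDNA test. The calls subtract the gDNA change, so the choice of called reporters favours higher gDNA with GAL4-ACF1. The gDNA counts widened the spread, since between replicates of GAL4 the SD of log2 values was 0.89 for cDNA, 0.98 for gDNA and 1.32 for their ratio. For GAL4-ACF1 these SDs were 1.65, 0.90 and 1.88, so the excess spread of that group was in cDNA.

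For each reporter edgeR's quasi-likelihood test was run on the counts, for the change of cDNA beyond that of gDNA relative to library totals. It called 41 reporters lower, which is 6.39% of those tested, and 1 higher, which is 0.156% (adjusted p under 0.05, Benjamini-Hochberg over 642 reporters). Without adjustment 161 were lower and 8 higher at 0.05. The split depends on the scaling. With TMM factors 16 were lower and 8 higher, and with DESeq2's median-of-ratios factors 34 and 31. These factors moved the median fitted log2 change from −1.23 to −0.48 and −0.29, which is a shift of 0.74 and 0.94, so those calls are changes relative to the typical fall. The calls also rest on both GAL4 libraries: 1 reporter was called lower without GAL4 replicate 1 and 2 without GAL4 replicate 2. Without GAL4-ACF1 replicate 2 the number rose to 98.

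The 41 reporters called lower had lower expression in GAL4 and higher counts than the tested reporters as a whole. Their median fitted log2 change was −3.40. Their median expression in GAL4 was 23.5, against 38.4 for all tested reporters. Their median gDNA count in GAL4-ACF1 was 6655 against 1907, and their median cDNA count in GAL4 was 1783 against 956. In 7 of them both GAL4-ACF1 libraries held 3 cDNA counts or fewer. Both GAL4-ACF1 libraries lay below both GAL4 libraries in all 41, which the choice of reporters by this contrast favours.

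The clearest single case was the reporter at 3R:13718423, whose barcode is shown above. There were 2082 and 1484 cDNA counts in GAL4 against 17 and 17 with GAL4-ACF1. Its gDNA counts were 34493 and 17957 in GAL4 against 34614 and 22584 with GAL4-ACF1. Cells with this insertion were thus as frequent in both groups while its transcript was nearly gone. Expression was 4.16 and 3.84 against 0.0503 and 0.0403, or 88.3-fold lower, with a fitted log2 change of −6.27 ± 0.53 (SE, edgeR adjusted p = 3.67e-05). It was the 1 named reporter whose call held without either GAL4 library (adjusted p = 0.0042 and 0.0022, edgeR).

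On 2L, the reporter at 14457104 fell in a similar manner from a low level. Its expression was 6.51 and 9.58 in GAL4 against 0.287 and 0.388 with GAL4-ACF1, 23.9-fold lower (edgeR adjusted p = 0.00315). The groups lay far apart, with cDNA counts of 992 and 1588 against 31 and 68. The reporter at 2L:5570520, with 24.9 and 20.0 in GAL4 against 1.08 and 1.63 with GAL4-ACF1, was 16.5-fold lower (edgeR adjusted p = 0.0231). At 2L:15543740 the 183 and 198 cDNA counts of GAL4 became 1 and 0. Summed over replicates the share of cDNA was 297 times lower there, with an exact binomial interval for counting error of 53.0 to 11761 (95%). The interval is wide because a single GAL4-ACF1 count remained.

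The 3 named reporters on 3L kept measurable expression and had depth on both sides. At 3L:2687539 expression was 22.3 and 26.5 in GAL4 against 0.819 and 2.39 with GAL4-ACF1, 15.2-fold lower (edgeR adjusted p = 0.00315). At 3L:7731919 it was 23.6 and 32.6 against 2.01 and 2.64, 12.1-fold lower (edgeR adjusted p = 0.00373). At 3L:15724894 it was 19.8 and 7.37 against 1.5 and 0.933, 11.1-fold lower (edgeR adjusted p = 0.0379). The groups were separate at all 3 sites, and the GAL4 replicates of the last differed among themselves by more than those of the others.

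The 3 named reporters on X were at or near 0 in 1 GAL4-ACF1 library and low in the other. At X:12333115 the 1050 and 860 cDNA counts of GAL4 were followed by 0 and 27, and at X:874665 the 374 and 304 counts by 0 and 14 (edgeR adjusted p = 0.0231 and 0.019). At X:8214521 there were 139 and 62 counts in GAL4 and 1 in each GAL4-ACF1 library. The share of cDNA was 78.3 times lower there (exact binomial interval 21.4 to 651). On 3R, the reporter at 2137932 went from 146 and 128 counts to 0 and 1, and that at 24818880 from 182 and 146 to 2 and 0, which are 214 times (38.0 to 8467) and 128 times (35.1 to 1060) lower shares. Their gDNA counts stayed at 1810 or more in the GAL4-ACF1 libraries, so the insertions were present there.

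On 2R the largest fitted fall was at 19099067, with 605 and 1317 cDNA counts in GAL4 against 0 and 1 with GAL4-ACF1 (edgeR adjusted p = 0.00878). The 2R reporter at 12260747 had more counts left, with expression of 9.23 and 14.0 in GAL4 against 0.336 and 1.32 with GAL4-ACF1, 14.0-fold lower (edgeR adjusted p = 0.00878). At 2R:6869125 the 408 and 144 counts of GAL4 were followed by 0 and 26. The only call outside the large arms was at 3RHet:2353716, on a heterochromatic scaffold, with 344 and 107 counts in GAL4 against 1 and 0 with GAL4-ACF1. There, too, the gDNA counts of 11537 and 7032 in GAL4-ACF1 were no lower than those of 6194 and 4263 in GAL4.

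**Figure D3:**
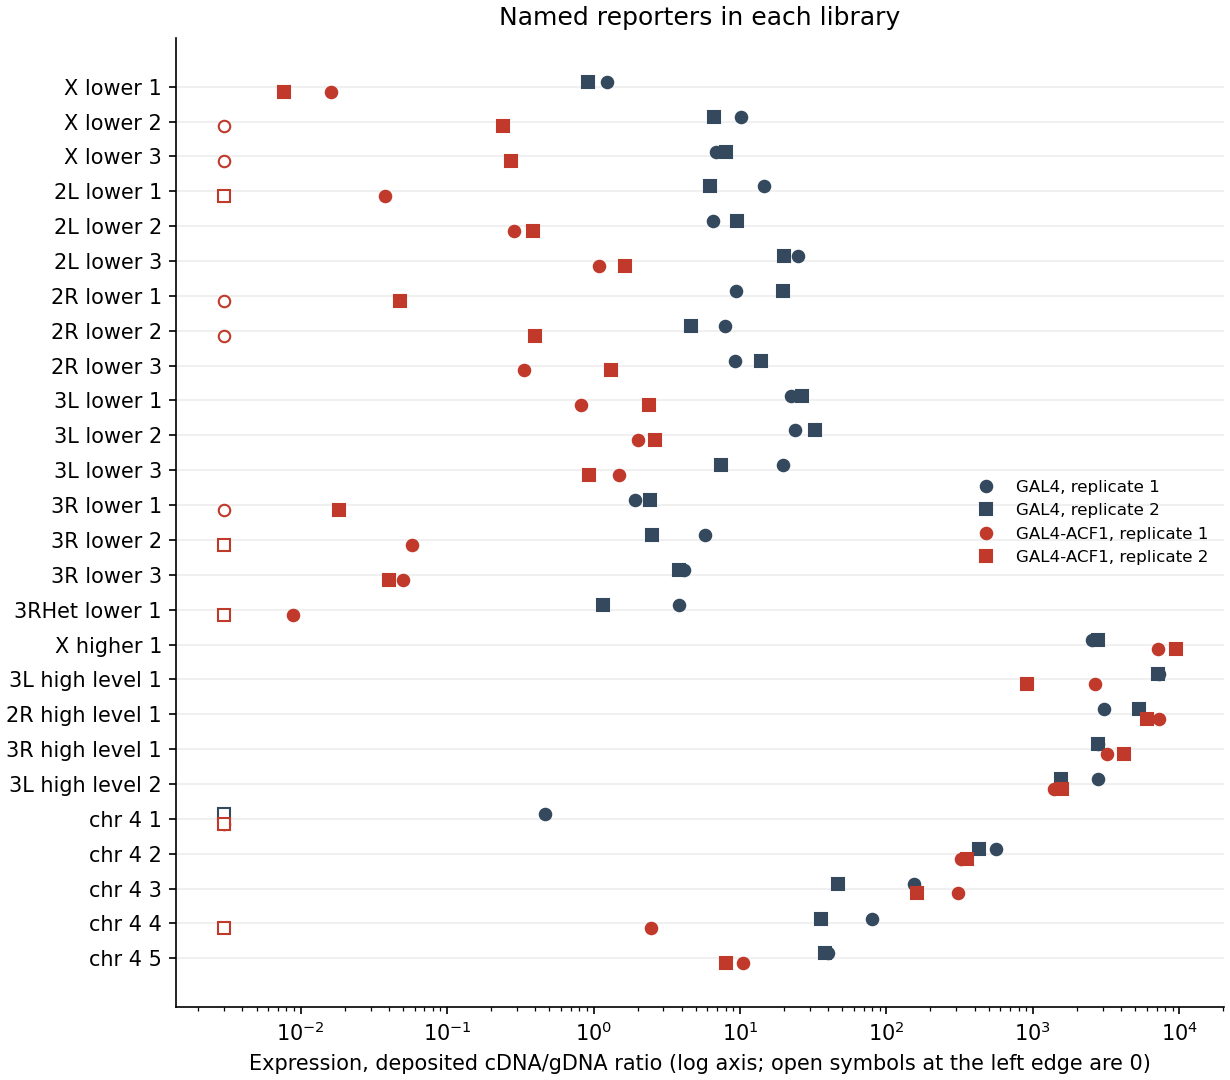
Deposited expression (log axis) of the named reporters in the 2 GAL4 and 2 GAL4-ACF1 libraries, 1 row per reporter in the order lower calls, higher call, highest level in GAL4, chromosome 4; open symbols at the left edge stand for 0. In every row called lower the GAL4-ACF1 symbols lie left of the GAL4 symbols, and for the strongest reporters they overlap or lie to the right, apart from the first 3L reporter of high level.

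The 1 reporter called higher, at X:3325631, is among the 5 strongest in GAL4. Its expression was 2532 and 2780 in GAL4 against 7150 and 9516 with GAL4-ACF1, 3.14-fold higher (fitted log2 change 1.79 ± 0.35, SE, edgeR adjusted p = 0.0111). Its share of cDNA reads was 2.56% and 2.77% in GAL4 against 3.47% and 2.75% with GAL4-ACF1, so the groups overlapped on the transcript side. Its share of gDNA reads was 0.110% and 0.108% in GAL4 against 0.0457% and 0.0275% with GAL4-ACF1. The change in the ratio thus lay mostly in its gDNA count. With the library sizes of the authors' scaling it was not called (edgeR adjusted p = 0.070).

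The other 4 of the 5 strongest reporters did not move together. At 3L:3430681 expression fell from 7300 and 7118 in GAL4 to 2670 and 912 in GAL4-ACF1, 4.03-fold lower (edgeR adjusted p = 0.04). Its share of cDNA reads fell from 2.61% and 3.15% to 1.77% and 1.01%. Its share of gDNA reads rose from 0.0388% and 0.0480% to 0.0625% and 0.106%, so the change in the ratio lay in both. With the library sizes of the authors' scaling it was not called (edgeR adjusted p = 0.057). At 2R:8505191 expression was 3064 and 5283 in GAL4 against 7275 and 5985 with GAL4-ACF1, 1.59-fold higher without passing the threshold (edgeR adjusted p = 0.0627). At 3R:4644683 it was 2799 and 2785 against 3225 and 4207, 1.33-fold higher (edgeR adjusted p = 0.0709). At 3L:3387336 the groups overlapped, with 2764 and 1549 in GAL4 against 1400 and 1582 with GAL4-ACF1 (edgeR adjusted p = 0.816). Hence strong activity in the control went with a fall, no clear change or a higher value, depending on the site.

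The level in the GAL4 control was the site property along which the change varied most. Tested reporters were ranked by mean GAL4 expression and cut into quintiles. The median log2 fold-change was −2.18, −1.82, −1.58, −1.10 and −0.52 from the lowest to the highest quintile. Median GAL4 expression in these quintiles was 6.14, 17.1, 38.5, 78.3 and 279. In the top quintile 69.5% of reporters were still lower with GAL4-ACF1, against 86.8% in the lowest. Of the 41 reporters called lower, 12, 10, 7, 9 and 3 lay in the 5 quintiles. That is 9.30% of the lowest and 2.34% of the highest, around the 6.39% over all tested reporters.

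Level and fold-change share the GAL4 value, so a chance low value in GAL4 would push the fold-change up in the lowest quintile. The level was therefore also taken from 1 GAL4 replicate and the fold-change computed against the other. With the level from replicate 1 the medians were −2.45, −1.72, −1.06, −1.06 and −0.31. With the level from replicate 2 they were −2.80, −1.92, −1.56, −0.90 and −0.21. The top quintile minus the bottom quintile came to 2.37 on the log2 scale, averaged over both choices. With GAL4-ACF1 replicate 1 over GAL4 replicate 1 it was 2.15, and with GAL4-ACF1 replicate 2 over GAL4 replicate 2 it was 1.66 (mean 1.90 ± 0.35, SD, n = 2), each with the level from the other GAL4 replicate. In quintiles of mean GAL4 expression, GAL4 replicate 1 over replicate 2 had a median log2 of 0.44 in the lowest and −0.15 in the highest. The SD over reporters was 1.30 and 1.29 there. Those quintiles treat both replicates alike, so they cannot show what noise gives when the level comes from 1 replicate. The mean gradient of 1.90 exceeded its own SD between the replicates (0.35). It was computed only over tested reporters, and the 58 reporters of the lowest level at 0 in both GAL4-ACF1 libraries, of 150, have no fold-change.

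**Figure D4:**
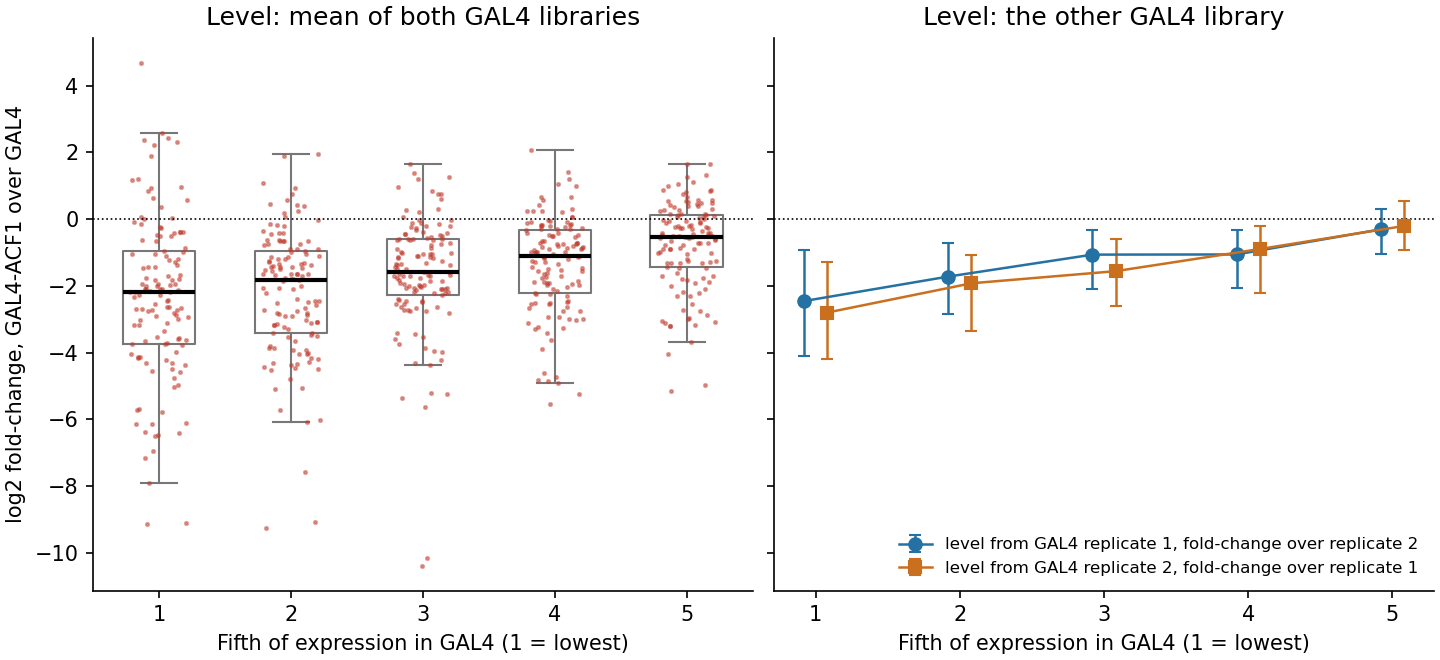
Left, log2 fold-change of each of the 642 tested reporters (points) by quintile of mean GAL4 expression, with boxes for the quartiles, a line for the median and whiskers to the last value that is not outlying; right, medians with quartiles when the level came from the GAL4 replicate not used in the fold-change. In both panels the medians approach 0 from the lowest to the highest quintile, from −2.18 to −0.52 on the left.

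Over tested reporters the gradient was larger among abundant than among rare insertions, and the zeros also moved with abundance. Each quintile was divided at its median gDNA count. Among the more abundant insertions the median log2 fold-change was −2.65 in the lowest quintile and −0.42 in the highest. It went from −2.40 to −0.36 in replicate 1 and from −2.14 to −0.30 in replicate 2. Among the less abundant it was −1.83 and −0.68, with −1.23 and −0.65 in replicate 1 and −1.13 and −0.98 in replicate 2. In replicate 2 the lowest and highest quintiles of the rare insertions thus lay close together. Of all reporters at the lowest level, 46 of 75 of the less abundant and 12 of 75 of the more abundant were at 0 in both GAL4-ACF1 libraries. Those reporters have no fold-change and are missing from the medians above, so the gradients of rare and abundant insertions are not on equal terms. Of the 12 calls in the lowest quintile, 11 were among the more abundant insertions. Zeros and calls at weakly expressed sites thus moved with the abundance of the insertion, whose part in the result was not tested.

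The medians of the large arms differed less than those of the level quintiles. The median log2 fold-change was −1.71 on X (131 tested), −1.69 on 2L (108), −1.34 on 3L (129), −1.24 on 3R (155) and −1.03 on 2R (101). In replicates 1 and 2 alone 2L gave −1.72 and −1.38 and 2R gave −1.12 and −0.86, so 2L was lower than 2R in both. That pair was picked after the values were seen. The order followed the level in GAL4 in part, since median GAL4 expression of tested reporters was 32.4 on X, 29.4 on 2L, 42.8 on 3L, 41.3 on 3R and 44.6 on 2R. After the median of its level quintile was subtracted from each reporter, the 5 arms lay between −0.12 (2L) and 0.08 (3L), with X at −0.014. X minus the large autosome arms together was −0.37, but −0.011 and −0.29 in replicates 1 and 2 alone (mean −0.15 ± 0.19, SD, n = 2). This difference does not exceed the spread between the replicates, and without GAL4-ACF1 replicate 2 it was 0.12. Calls were spread over the 5 arms, with 9 on X, 7 on 2L, 5 on 2R, 9 on 3L and 10 on 3R. These are 4.95% to 6.98% of the tested reporters of an arm, near the 6.39% over all.

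The level gradient was found on each large arm. From the lowest to the highest quintile the median went from −2.08 to −0.64 on X, from −2.84 to −0.59 on 2L, from −2.14 to −0.56 on 2R, from −2.0 to −0.49 on 3L and from −2.68 to −0.50 on 3R. The steps between were uneven on single arms, where a quintile holds 12 to 39 reporters. On X the middle quintile was lowest, at −2.24.

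Reporters outside the large arms were few. On the Het scaffolds, which hold the assembled part of pericentric heterochromatin, 13 of 25 reporters were tested, with a median log2 fold-change of −1.87 (−1.48 and −1.26 in replicates 1 and 2). In 10 of the 25 (40.0%) both GAL4-ACF1 libraries were at 0, against 9.92% on the large arms. Both GAL4 libraries were at 0 in 3 of the 25 (12%), against 0.419% on the large arms. Median expression of the 25 in GAL4 was 2.50 against 30.9, so the control signal was also lower on the scaffolds. Among the 150 reporters of the lowest GAL4 level, with a median GAL4 expression of 3.10, 38.7% were at 0 in both GAL4-ACF1 libraries. After the level adjustment used for the arms, the 13 tested scaffold reporters had a median of 0.22, against 0 on the large arms together. The scaffold reporters at 0 in both GAL4-ACF1 libraries are not part of that value. Whether scaffolds and arms differ at equal GAL4 level was not tested. Of the 3 reporters on unplaced scaffolds, 1 was tested.

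Chromosome 4, a small chromosome rich in HP1 but with active genes, held 5 reporters with 5 different courses. The most active, at 547814, had expression of 557 and 431 in GAL4 against 326 and 356 with GAL4-ACF1, 1.45-fold lower (edgeR adjusted p = 0.396). The reporter at 1252113 had 40.0 and 38.2 against 10.6 and 8.01, 4.21-fold lower, just short of the threshold (edgeR adjusted p = 0.0548). At 1200624 the values were 79.8 and 35.7 against 2.47 and 0 (edgeR adjusted p = 0.257). In these 3 both GAL4-ACF1 libraries lay below both GAL4 libraries, though none passed the test. At 966930 they lay above, with 155 and 46.4 in GAL4 against 307 and 161 with GAL4-ACF1 (edgeR adjusted p = 0.379). At 407950 there were 8 and 0 cDNA counts in GAL4 and 0 in GAL4-ACF1, too few for a fold-change.

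Along the arms no gradient was seen. Reporters of each arm were cut into quintiles of position, from the telomeric to the centromere-proximal end. The pooled medians were −1.67, −1.49, −1.15, −1.34 and −1.51. The middle of the arms changed least, and it was also the part with the highest GAL4 expression among tested reporters (59.1 against 30.0 to 39.7). The centromere-proximal minus the telomeric quintile was 0.16, and 0.022 and −0.21 in the single replicates (mean −0.093 ± 0.16, SD, n = 2), which is within their spread. Without GAL4-ACF1 replicate 2 it was −0.0027 and without GAL4 replicate 1 it was −0.15. After the same level adjustment the 5 positions lay between −0.11 and 0.074. Within arms the medians ranged from −0.78 (3R, quintile 2) to −2.49 (2L, quintile 4). That 2L stretch of 21 tested reporters held 5 of the 7 calls on 2L, or 23.8% against 6.39% over all, and its medians were −2.32 and −2.12 in the single replicates. The stretch was singled out after its values were seen.

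**Figure D5:**
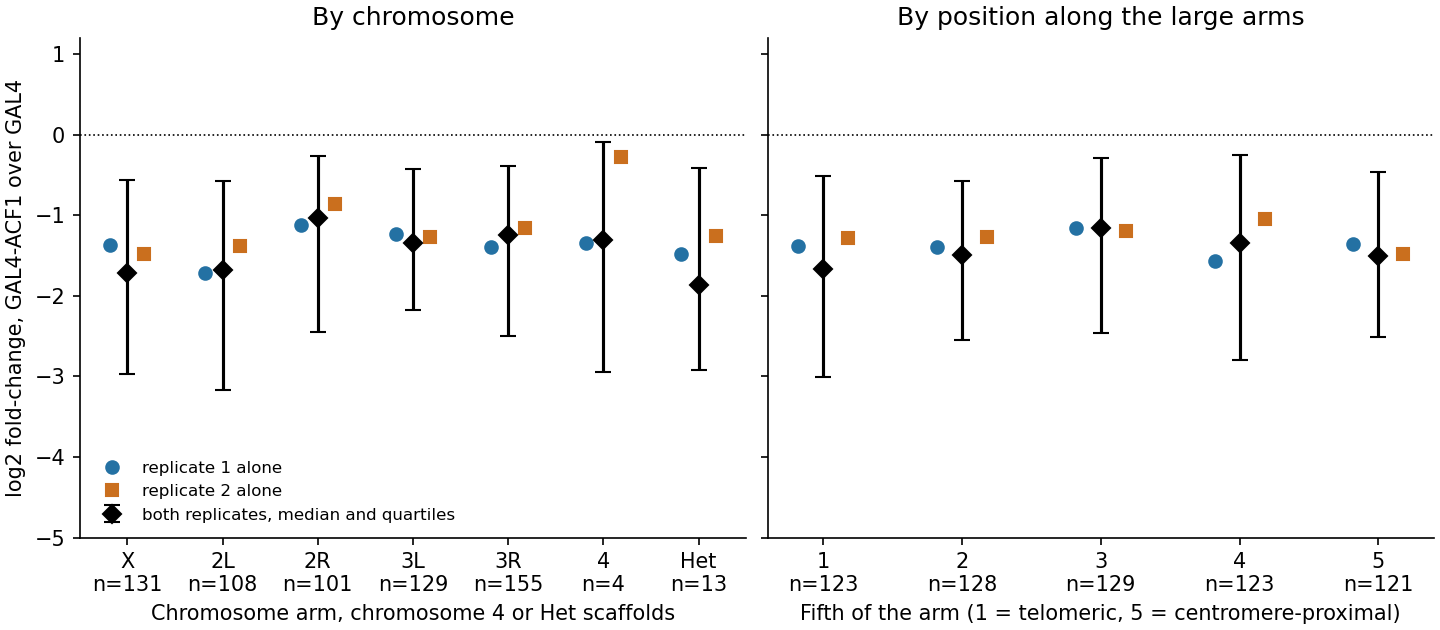
Median log2 fold-change with quartiles (diamonds and bars) by chromosome and by quintile of position along the large arms, with the medians of replicate 1 (circles) and replicate 2 (squares) beside them and the number of tested reporters under each label. Medians of the large arms lie between −1.71 and −1.03 and those of the positions between −1.67 and −1.15, with quartiles that overlap throughout.

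The difference between orientations did not exceed the spread between replicates. The median was −1.36 for 296 tested reporters on the plus strand and −1.46 for 346 on the minus strand. The difference of 0.10 was 0.010 in replicate 1 and 0.13 in replicate 2 (mean 0.072 ± 0.087, SD, n = 2), and −0.11 without GAL4-ACF1 replicate 2. On single arms the medians for plus and minus were −1.80 and −1.69 (X), −1.66 and −1.78 (2L), −0.99 and −1.33 (2R), −1.34 and −1.35 (3L) and −1.19 and −1.45 (3R). Of the reporters called lower, 14 were on the plus strand and 27 on the minus strand, or 4.73% and 7.80% of those tested, on either side of the 6.39% over all.

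Near insertions differed somewhat less in their change than distant ones, by about the spread between replicates. The median absolute difference in log2 fold-change was 0.79 for 4 pairs closer than 1 kb, 1.17 for 25 pairs at 1 to 10 kb, 1.48 for 327 pairs at 10 to 100 kb and 1.61 for all pairs on an arm. The pairs closer than 1 kb gave 2.53 in replicate 1 (3 pairs) and 1.56 in replicate 2 (4 pairs), against 1.80 and 1.59 for all pairs, so their small difference was not found in the single replicates. Below 10 kb it was 1.09 over 29 pairs, which is −0.52 relative to all pairs. In the single replicates this difference was −0.093 and −0.41 (mean −0.25 ± 0.23, SD, n = 2), and it was −0.15 without GAL4-ACF1 replicate 2. Pairs share reporters and libraries. Near pairs were also closer in GAL4 expression, with a median absolute log2 difference of 1.29 against 2.02.

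The closest pairs of well-counted reporters show how far neighbours can go together. On 2R, insertions 17 bases apart and in opposite orientation, at 8268327 (−) and 8268310 (+), were 7.71-fold and 6.78-fold lower. The first was called (edgeR adjusted p = 0.019) and the second, with 692 and 595 gDNA counts in GAL4 against 7971 and 4537, was not (edgeR adjusted p = 0.153). On 3L, insertions 171 bases apart at 3951388 and 3951559 were 3.25-fold and 4.53-fold lower, both short of the threshold. Their replicates disagreed, with expression of 50.7 and 18.4 in GAL4-ACF1 for the first and 3.01 and 14.5 for the second. The last pair, 357 bases apart at 3L:2089820 and 3L:2090177, gave 38.3 and 18.3 in GAL4-ACF1 against 177 and 86.9 in GAL4, and 55.6 and 10.9 against 44.6 and 32.7. Here the first lay below the control in both replicates, and the groups of the second overlapped.

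The GAL4-ACF1 samples share their control with the other constructs of the series, so values are set side by side only, and those of the other constructs depend on the scaling. Over all tested reporters the median log2 change against GAL4 in deposited expression was −1.44 with GAL4-ACF1, −0.40 with ACF1 lacking the GAL4 domain and −1.47 with GAL4-HP1. Relative to library totals the fitted medians were −1.23, −0.63 and −0.64. The median with GAL4-HP1 was thus near that with GAL4-ACF1 under the authors' scaling and near that with ACF1 under library totals. For the 41 reporters called lower, which were chosen on the GAL4-ACF1 values, deposited expression gave −3.60, −1.14 and −2.15, and library totals gave −3.40, −1.31 and −1.33. The reporter at 3R:13718423 stood at −6.46, −1.91 and −2.54 in deposited expression. The reporter at 3R:24818880 had 0 and 1 cDNA counts with ACF1, 31 and 30 with GAL4-HP1 and 2 and 0 with GAL4-ACF1. In a direct contrast of GAL4-ACF1 with ACF1, 1 of the 642 reporters passed edgeR's test as lower with library totals and 4 with the authors' library sizes. In the contrast with GAL4-HP1 these numbers were 4 and 2, and 1 was higher with the authors' sizes. Without adjustment, 69 to 105 reporters had a p below 0.05 in these 4 fits.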

How the data were processed

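Barcode reads in cDNA and gDNA of sorted cells were counted by the authors, and the deposited counts are whole reads per reporter, not normalized. The deposited expression is a ratio of cDNA to gDNA count that the authors multiplied by 1 factor per library. Expression times gDNA over cDNA was constant within each library. The factor holds a scaling to spike-in cells added at 2.5%, which could not be recomputed, because none of the 232 deposited spike-in barcodes is a row of the table. The submitters' processing notes name dm3. The counting software is not given in the sources used here. No molecular identifiers are described, so intervals cover counting error only.

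Log2 fold-changes are log2 of mean GAL4-ACF1 over mean GAL4 expression, without a pseudocount. Reporters with a mean of 0 in any of the 4 conditions were left out. The study's methods drop reporters at 0 in at least 1 condition, and the mean over replicates is a reading that keeps more reporters than the study plotted. A stricter reading, above 0 in every cDNA library of the 4 conditions, would keep 497. The closing section gives medians over deeper subsets. Counts were tested with edgeR 4.0.16 (R 4.3.3; glmQLFit, glmQLFTest, two-sided) over 16 libraries in 8 groups, with column totals as library sizes and a common dispersion of 0.358. The coefficient tested was the difference of the cDNA and gDNA changes. Counts with known changes were drawn for the comparison of GAL4-ACF1 with GAL4 (642 reporters, 3 runs). The test called 56.6% of reporters lowered by 4 on the log2 scale, 12.5% of those lowered by 2 and 0.754% of unchanged ones. The drawn gDNA counts varied far less than the drawn cDNA counts, unlike in the GAL4 libraries. Only a part of the reporters was changed, with falls and rises equally likely. These rates therefore do not describe the real comparison, where most reporters fell. Alternatives were TMM, the authors' scaling, DESeq2 1.42.0, other filters, cDNA alone, a replicate block and leaving out each replicate. The authors' scaling for the other constructs was added after seeing the data.

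Members and lists were chosen with earlier results of these data known. Named reporters were up to 3 called lower with the most negative fitted change on each large arm and on the Het scaffolds (with a minimum of 50 in every GAL4 cDNA library and every gDNA library, and lower in both replicates), every reporter called higher, the 5 strongest in GAL4, those on chromosome 4 and the 3 closest pairs. Comparisons between sites carry no test, since reporters share libraries. Barcodes of reporters on 2R are not printed.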

Additional observations from a re-analysis of the deposited data

How the results depend on the processing

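The fall of the median reporter and the level gradient kept their direction under every alternative run. The median log2 fold-change of −1.44 was −1.24 with library totals, −1.64 with a pseudocount of 1 over all 749 reporters, −1.10 over the 500 reporters with at least 10 counts and −1.24 with the replicate block. Leaving out single replicates gave −1.42 to −1.22. The level gradient of 2.37 was 1.59 from cDNA alone, 1.44 with at least 10 counts and 1.96 with the replicate block, and 1.83 and 1.83 without single GAL4-ACF1 replicates. Without a GAL4 replicate it has no value, because it needs both. X minus autosomes was −0.16 with the replicate block and −0.37 to 0.12 without single replicates, so it reversed. The centromere-proximal minus telomeric difference of 0.16 reversed to −0.041 with cDNA alone, −0.31 with at least 10 counts and −0.11 with the replicate block, and was −0.15 to 0.34 without single replicates. Without single replicates the orientation difference of 0.10 ranged from −0.11 to 0.12, and that of neighbours of −0.52 from −0.47 to −0.15. The causes were not tested.

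Lower and higher calls (41 and 1) were 16 and 8 with TMM factors, 32 and 0 with the authors' library sizes, 109 and 3 with DESeq2 on the same sizes, 34 and 31 with its median-of-ratios factors, 90 and 3 without a filter, 51 and 2 with at least 10 counts, 38 and 2 from cDNA alone, and 44 and 3 with the replicate block. Without single replicates they ranged from 1 to 98 and from 0 to 3, where the lone sample is assumed to vary like the other groups. Median-of-ratios gave no adjusted p for 125 reporters. With only the 8 libraries compared 33 were lower. Of the 41, 41 were also called by DESeq2 on the same sizes and without a filter, 36 with the replicate block, 30 with the authors' sizes and with at least 10 counts, 27 with median-of-ratios, 24 with the 8 libraries, 23 from cDNA alone and 16 with TMM. Without GAL4-ACF1 replicate 1 or 2, 23 and 33 of them were called, and without GAL4 replicate 1 or 2, 1 and 2. The labels do not tie equal replicate numbers together, and the main fold-changes and calls treated the samples as unpaired. The single-replicate values and their SDs set same-numbered libraries against each other. The crossed pairing was not computed, so these SDs hold for 1 arbitrary pairing. The deviations of same-numbered GAL4-ACF1 and GAL4 libraries correlated at −0.009 for expression, 0.12 for cDNA and −0.024 for gDNA over 497 reporters, and between other conditions at up to 0.15.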

Other observations

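Barcodes with the most G and C bases went with the most negative median, also in each single replicate, and the part of barcode composition was not tested. Tested reporters with 0 to 9 G or C bases in the 21-base barcode had a median log2 fold-change of −1.44, those with 10 to 11 of −1.34 and those with 12 to 21 of −1.65. The single replicates gave −1.19 and −1.24, −1.46 and −1.20, and −1.57 and −1.57. Median GAL4 expression in these groups was 28.0, 32.2 and 25.7, so the group with the most G and C bases also had the lowest level. The smallest number of differences between any 2 barcodes of the table was 6 bases, so a single misread base could not turn 1 reporter into another.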
